A study of Rattus norvegicus with 6 samples.

Results

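The genes of cholesterol and fatty acid synthesis were compared between kidneys of the Dahl salt-sensitive (S) rat and of the congenic strain S.LEW(10)x12x2x3x5. Members were 32 genes given by name, with no measured value in the rule: regulators of sterol sensing, enzymes from the mevalonate pathway to cholesterol, genes of sterol efflux and transport, and enzymes of fatty acid synthesis. A probe set, the group of short probes that reads 1 transcript on an Affymetrix array, counted as a member when the array annotation gave it exactly 1 of these symbols. This found 55 of the 31042 probe sets tested, for 31 of the 32 genes. Sc4mol is listed under its current symbol Msmo1, and Hmgcs1 has no listed probe set. Of the 31 genes 18 had several probe sets and 13 had 1.

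Both groups were 3 male rats weaned at 30 days, fed a diet with 0.3% salt and killed at 53 days, with 1 array of whole kidney RNA per rat. The S group carried the inbred Dahl S genome throughout. The congenic group had LEW (Lewis rat) DNA in place of a segment of chromosome 10, on that same S background, and stands for 1 congenic line. No drug was given, and every cage held a rat of each strain. Cage numbers were not among the labels. In whole kidney, fewer cells of a type and less RNA per cell cannot be told apart.

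Cells sense cholesterol through SCAP, which carries the SREBP proteins (encoded by Srebf1 and Srebf2) from the endoplasmic reticulum to the Golgi when sterols are scarce. The INSIG proteins hold SCAP back when sterols are plentiful. The released part of SREBP-2 mainly drives genes of cholesterol synthesis and that of SREBP-1c genes of fatty acid synthesis, while the liver X receptors, which bind oxidised sterols, drive efflux through ABCA1 and ABCG1. In the kidney these lipids supply the large membranes of the tubule cells.

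SREBP proteins act at promoters beside the factor NF-Y, so the promoter sequences of the 4 members with the smallest p among those with an entry in the RefSeq promoter table are shown, each from 250 bases before to 50 bases after an annotated start, 5′ to 3′ along the gene. Capitals mark the letters CCAAT of the NF-Y box or CACGTG of the E-box on either strand.
Idi1 (GRCr8, chr17:66547475-66547774, minus strand): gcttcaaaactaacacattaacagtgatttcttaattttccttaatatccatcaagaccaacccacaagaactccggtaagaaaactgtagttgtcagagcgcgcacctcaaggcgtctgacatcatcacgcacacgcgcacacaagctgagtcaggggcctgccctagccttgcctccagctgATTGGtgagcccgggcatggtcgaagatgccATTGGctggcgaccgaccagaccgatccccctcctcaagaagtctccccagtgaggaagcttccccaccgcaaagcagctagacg
Fdps (GRCr8, chr2:176804767-176805066, minus strand): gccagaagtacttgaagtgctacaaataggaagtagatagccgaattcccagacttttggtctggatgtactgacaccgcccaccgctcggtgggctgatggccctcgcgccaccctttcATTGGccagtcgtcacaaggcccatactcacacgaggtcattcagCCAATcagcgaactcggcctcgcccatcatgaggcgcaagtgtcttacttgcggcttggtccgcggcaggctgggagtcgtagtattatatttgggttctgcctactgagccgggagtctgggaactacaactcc
Srebf1, upstream start (GRCr8, chr10:45529115-45529414, minus strand): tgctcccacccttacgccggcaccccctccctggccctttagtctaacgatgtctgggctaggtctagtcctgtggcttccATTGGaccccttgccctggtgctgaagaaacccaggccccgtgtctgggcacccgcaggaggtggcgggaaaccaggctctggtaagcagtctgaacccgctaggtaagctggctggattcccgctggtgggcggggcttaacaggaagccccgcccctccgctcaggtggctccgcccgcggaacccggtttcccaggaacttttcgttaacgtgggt
Srebf1, downstream start (GRCr8, chr10:45518961-45519260, minus strand): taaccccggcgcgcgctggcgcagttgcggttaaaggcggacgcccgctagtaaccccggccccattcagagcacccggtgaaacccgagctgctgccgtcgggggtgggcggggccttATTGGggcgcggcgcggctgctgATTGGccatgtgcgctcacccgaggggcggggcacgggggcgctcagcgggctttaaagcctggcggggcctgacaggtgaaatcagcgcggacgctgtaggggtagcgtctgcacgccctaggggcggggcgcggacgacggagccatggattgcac
Abca1 (GRCr8, chr5:72596424-72596723, minus strand): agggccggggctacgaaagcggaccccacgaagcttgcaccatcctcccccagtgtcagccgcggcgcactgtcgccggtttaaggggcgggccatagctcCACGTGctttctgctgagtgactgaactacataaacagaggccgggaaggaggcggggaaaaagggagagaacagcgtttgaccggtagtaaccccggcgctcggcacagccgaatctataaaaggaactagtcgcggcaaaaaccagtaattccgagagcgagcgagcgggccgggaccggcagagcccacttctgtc
The table held promoters for 25 of the 32 members, and none for Fdft1, Elovl6, Fasn, Sqle, Pmvk, Abcg1 or Stard4. The letters CCAAT lay in the window of 18 of these 25 genes (72%), as in 37.5% of all 33365 promoter windows of this length. In Idi1 they began 66 and 35 bases before the start, in Fdps 130 and 85 bases before it, and in Srebf1 169 bases before the upstream start and 131 and 108 bases before the downstream start. CACGTG lay in the windows of 4 of the 25 members (16%) and in 6.43% of all windows. Abca1 had it 149 bases before its start and had no CCAAT. The core letters of a sterol regulatory element, TCACNCCAC, were in 0 of the 25 and in 1.12% of all windows, and AGGTCA repeated after a spacer of 4 bases, a form of the liver X receptor element, was in 0 of the 25 and in 0.00599% of all. Only exact matches were counted, so a count of 0 does not show that such elements are absent. A match is only a description of these letters in the reference strain, and the windows of S and LEW rats were not analysed here. No motif overlapped another in the printed windows.

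Values are log2 intensities, so a difference of 1 is a doubling, and a probe set was called when limma's adjusted p over all probe sets was under 0.05. Arrays have no read depth, and precision rests on 3 rats per group. Only a few member probe sets passed. Elovl6, which lengthens fatty acids, was lower in congenic kidneys at both of its probe sets, Fdft1, the squalene synthase that commits the pathway to sterols, was lower at its brighter probe set, and Abca1, the sterol efflux pump, was higher at its dimmest one. In all 4 of 55 were called, 1 higher and 3 lower (limma), where 6.00% of all probe sets were called, 3.47% higher and 2.53% lower. With each gene taken by its brightest probe set 2 of 31 passed, both lower, against 4.79% of 14217 genes. Under quantile normalization the count was again 4, 2 higher and 2 lower, but not of the same probe sets. The brightest probe set of Abca1 was gained (limma adjusted p = 0.0409) and 1 call of Elovl6 was lost. The share of members called was thus near that of all genes. The median difference, congenic minus S, was -0.04 over the 55 probe sets and -0.02 over all. The plot of member differences shows these values by role.

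**Figure D1:**
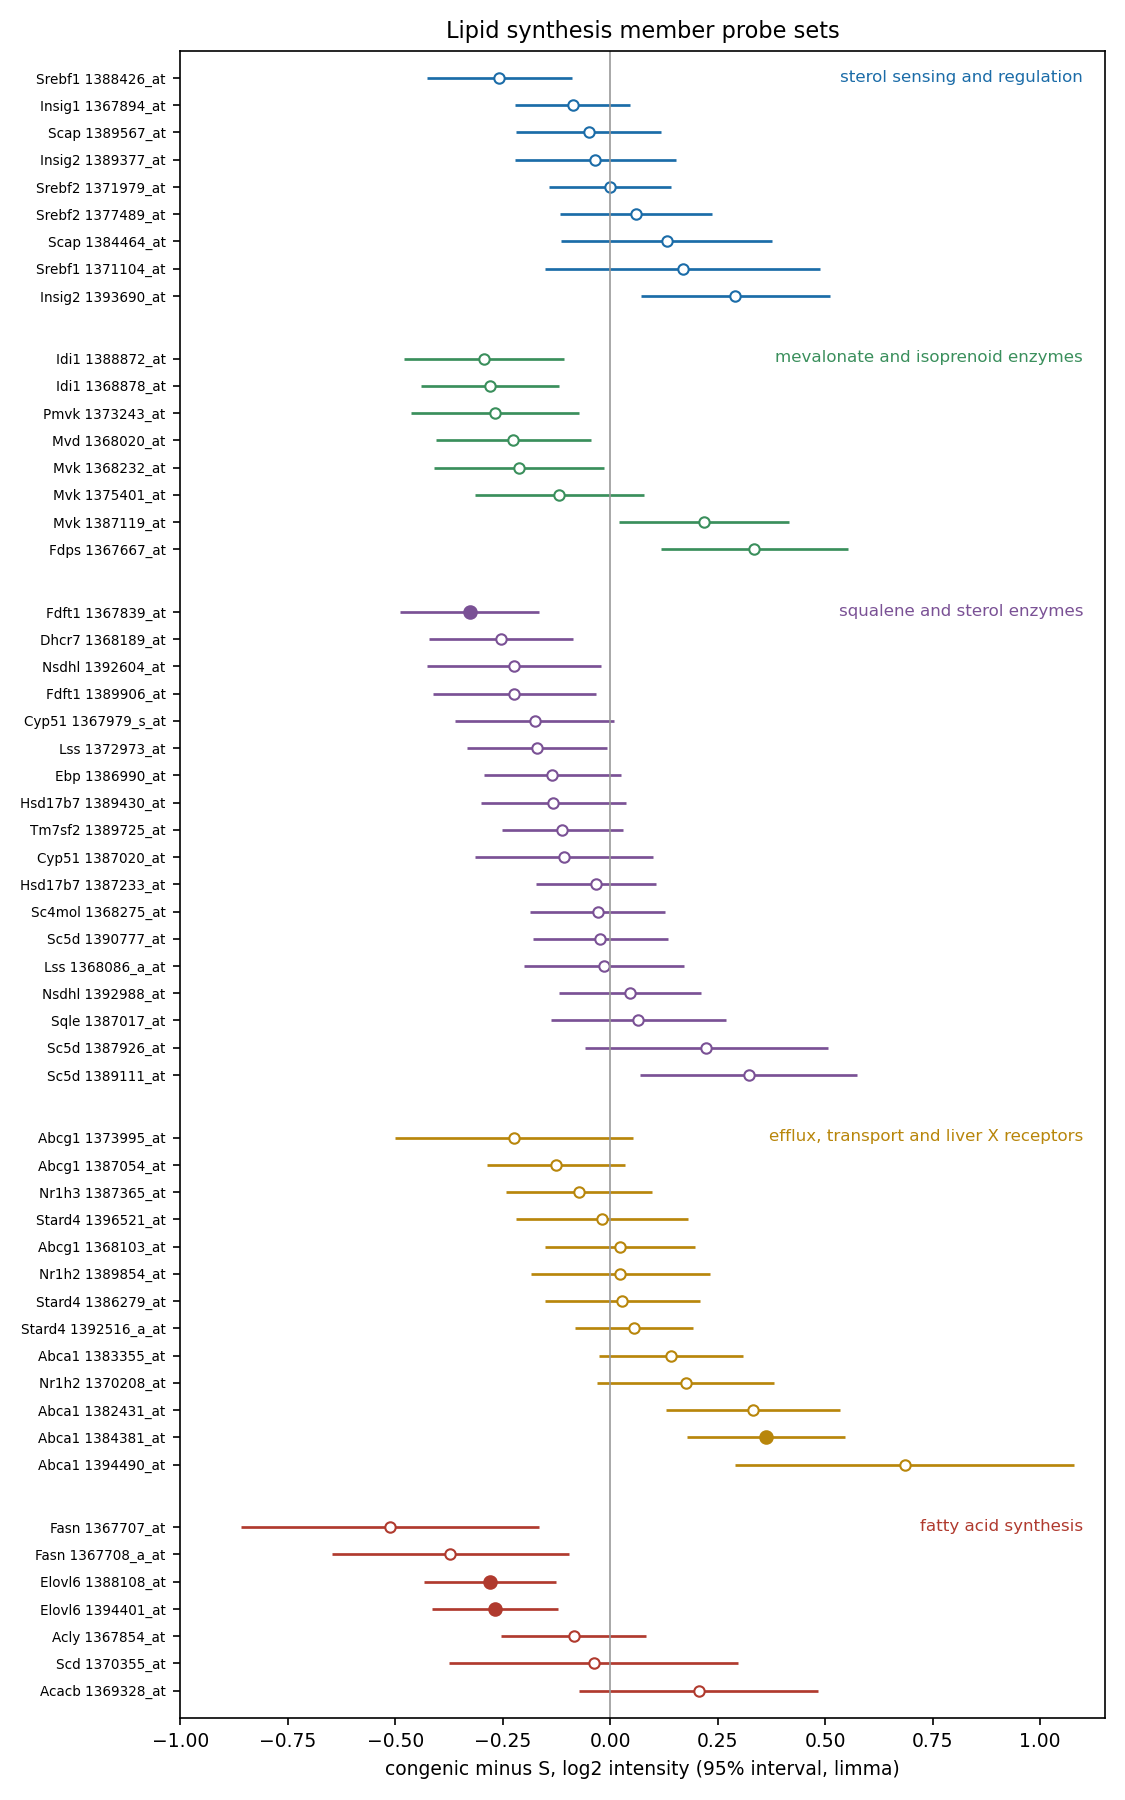
Difference in log2 intensity, congenic minus S, for each of the 55 member probe sets (rows, grouped by role), with the 95% interval from limma. Filled points passed an adjusted p of 0.05, namely Fdft1, both probe sets of Elovl6 and 1 of Abca1; open points did not pass.

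RNA quality was not the same in both groups. The beta-actin and Gapdh control probe sets at the 3′ and 5′ ends of the transcript, whose gap is wider when RNA is broken, lay 1.79 ± 0.28 apart on the log2 scale in S kidneys and 1.12 ± 0.13 apart in congenic kidneys (SD, n = 3). The groups did not overlap (exact permutation test, two-sided, p = 0.1, the lowest value possible with 3 rats each). The widest gap was that of S rat 2 (2.10), which was also, among the S rats, the farthest from the congenic mean at 37 of the 55 member probe sets and at 53.7% of all. The tubule markers Lrp2, Kap, Miox, Umod, Slc12a1, Slc12a3 and Aqp2 were above the lower quartile in every rat, with a summed level (log2 of the summed intensities) from 16.81 to 16.84 in S and from 16.78 to 16.79 in congenic rats. Slc12a3, of the distal tubule, stood apart in S rat 2, at 9.50 against 11.73 to 12.42 in the other 5 rats, as did Nphs1, of podocytes, at 5.67 against 6.90 to 8.87. The podocyte sum (2 of 3 markers measured, 0 called) ran from 10.09 to 10.90 in S and from 10.66 to 10.82 in congenic rats. The summed level of hepatocyte markers ran from 9.06 to 9.21 in S and from 9.21 to 9.47 in congenic rats, and that of adrenal cortex markers from 8.72 to 8.91 and from 8.69 to 8.88. Of 5 hepatocyte markers Fgb was called higher. Of 6 adrenal markers listed 4 were measured, and none was called. Among these Cyp11a1 was higher in every congenic rat (0.46, limma adjusted p = 0.0782) and Cyp21a1 lower in every one (-0.31, limma adjusted p = 0.0978). The groups overlapped for Star and Cyp11b1. Called members and those described rat by rat with an adjusted p under 0.1 are given also from a limma model that holds the 3′ to 5′ gap as a term, called the RNA quality term.

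Elovl6, on chromosome 2, encodes the elongase that turns palmitate into stearate, and gave the closest match between probe sets. At probe set 1388108_at S rats 1, 2 and 3 stood at 8.88, 8.81 and 8.83 and congenic rats 1, 2 and 3 at 8.50, 8.64 and 8.54. The groups did not overlap, and the difference was -0.28 ± 0.07 (SE; 95% interval -0.43 to -0.13; 1.21-fold lower; limma adjusted p = 0.0485). At probe set 1394401_at S rats stood at 8.48, 8.38 and 8.42 and congenic rats at 8.10, 8.18 and 8.19. Every S rat was again above every congenic rat, and the difference was -0.27 ± 0.06 (SE; 1.20-fold lower; limma adjusted p = 0.0478). Both calls lay close to the threshold and were lost when any of the 6 rats was left out, with differences then from -0.32 to -0.25 and from -0.29 to -0.24. With the RNA quality term the differences were larger, at -0.41 ± 0.13 and -0.39 ± 0.12 (SE), and did not pass (limma adjusted p = 0.54 and adjusted p = 0.53 in that model). S rat 2, with the widest 3′ to 5′ gap, was the lowest of the S rats at both probe sets.

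Fasn, on chromosome 10, encodes the fatty acid synthase that makes palmitate, and had the largest negative differences of the members, yet neither of its probe sets passed. At its brighter probe set, 1367708_a_at, S rats 1, 2 and 3 stood at 10.95, 11.31 and 11.32 and congenic rats at 11.00, 10.78 and 10.69. S rat 1 lay below congenic rat 1, so the groups overlapped, and the difference was -0.37 ± 0.12 (SE; 1.29-fold lower; limma adjusted p = 0.0996). The dimmer probe set, 1367707_at, ran from 9.13 to 9.54 in S and from 8.60 to 9.16 in congenic rats, with a difference of -0.51 ± 0.15 (SE; limma adjusted p = 0.0799). Without S rat 1 the brighter probe set stood at -0.50 and was called (limma adjusted p = 0.0128), and with the RNA quality term it stood at 0.04.

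Fat tissue around the kidney makes fatty acids, so adipocyte markers were read beside these genes. All 8 markers (Adipoq, Plin1, Cidec, Lep, Fabp4, Cfd, Cidea and Ucp1) had lower means in congenic rats, as had 59.4% of all genes. Cidec, a lipid droplet protein, was called (-0.61), with S rat 2 highest and congenic rat 2 lowest. The largest difference was that of Ucp1, at -1.14 (limma adjusted p = 0.0507), and Cidea stood at -0.55 (limma adjusted p = 0.0901). Neither passed, though the groups did not overlap at either. With the RNA quality term Ucp1 stood at -1.18, Cidea at -0.47, Cidec at -0.28, Fabp4 at 0.23 and Cfd at 0.21. The others stayed negative, and none passed. The summed level of the 8 was 11.95, 12.25 and 12.55 in S rats 1, 2 and 3 and 11.88, 11.59 and 11.46 in congenic rats 1, 2 and 3. Fasn and the adipocyte sum both had S rat 3 highest and congenic rat 3 lowest, with rat 1 of either strain near the middle. Elovl6 did not share this order: S rat 1 had its highest value and congenic rat 1 its lowest at both probe sets. The part of adipocyte content in the differences of Fasn and Elovl6 was not tested.

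**Figure D2:**
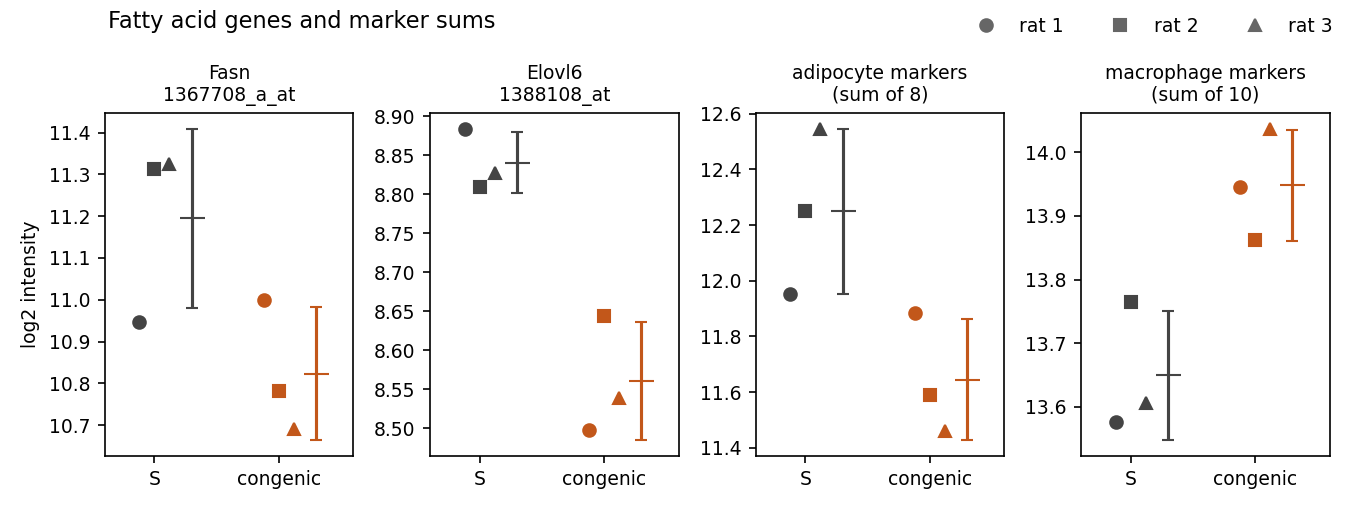
Log2 intensity of Fasn and Elovl6 at their brighter probe sets and log2 of the summed intensity of 8 adipocyte and 10 macrophage markers, in each rat (symbols) with mean and SD of 3 rats per group. Fasn and the adipocyte sum share S rat 3 as the highest and congenic rat 3 as the lowest, and S rat 1 and congenic rat 1 overlap for Fasn only.

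None of the other fatty acid synthesis members passed. Acly, which makes the acetyl-CoA for both pathways, stood at -0.08 ± 0.07 (SE; limma adjusted p = 0.53). Scd, a desaturase that makes oleate, was at 7.62, 7.14 and 7.61 in S rats 1, 2 and 3 and 7.59, 7.47 and 7.20 in congenic kidneys. These groups overlapped widely and the 95% interval of the difference ran from -0.37 to 0.30. Acacb, the mitochondrial acetyl-CoA carboxylase, was dim, at 5.79, 5.61 and 5.96 in S kidneys and 5.76, 6.12 and 6.10 in congenic kidneys, near the lower quartile of the arrays (5.88), and its difference of 0.21 ± 0.12 (SE) did not pass (limma adjusted p = 0.34). Of the 7 fatty acid synthesis probe sets 2 were called lower, 0 higher and 5 did not pass, where 2.53% of all probe sets were called lower. Both calls were of Elovl6. The median was -0.27, against -0.02 over all probe sets. By brightest probe set 1 of 5 genes was called, with a median of -0.08, against -0.03 over all genes.

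Among the sterol enzymes, Fdft1, on chromosome 15, joins farnesyl units into squalene. At probe set 1367839_at S rats 1, 2 and 3 stood at 10.78, 10.91 and 10.73 and congenic rats at 10.44, 10.52 and 10.48. The groups did not overlap, and the difference was -0.33 ± 0.07 (SE; 95% interval -0.49 to -0.17; 1.25-fold lower; limma adjusted p = 0.0384). Its dimmer probe set, 1389906_at, pointed the same way, also without overlap, at -0.22 ± 0.08 (SE; limma adjusted p = 0.135). The call was kept without S rat 1 (-0.34) and lost without any other rat, with differences from -0.36 to -0.28 over the 6. With the RNA quality term the brighter probe set stood at -0.21 ± 0.14 and the dimmer one at 0.0009 (SE of 0.15), and neither passed.

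The remaining enzymes had mostly negative differences, none of which passed. Of the 16 cholesterol enzymes with a probe set, Fdft1 included here and below, 12 had a negative difference at the brightest probe set, against 59.4% of all genes. In 9 of the 16 every congenic rat was below every S rat, as in 22.5% of all genes at their brightest probe set. Over all 55 member probe sets the groups lay apart in this way in 17 (30.9%), against 18.4% of all probe sets, and apart in the opposite direction in 8 (14.5%), against 12.7%. The enzyme median was -0.15 and that of all genes -0.03. With the RNA quality term the enzyme median was -0.0082, with 9 of 16 negative. S rat 2 had the highest S value at 16 of the 26 enzyme probe sets, S rat 1 at 10 and S rat 3 at 0, against 41.2%, 29.8% and 29.0% of all probe sets.

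In the mevalonate part, which turns acetyl units into isoprenoids, Idi1 came nearest to a call. Idi1, the isopentenyl diphosphate isomerase, was at 10.31, 10.44 and 10.26 in S rats 1, 2 and 3 and 10.03, 10.09 and 10.04 in congenic kidneys at probe set 1368878_at. The groups did not overlap, and the difference was -0.28 ± 0.07 (SE; limma adjusted p = 0.0531). This probe set was called after median centring (limma adjusted p = 0.0495), without dim probe sets (0.0436) and with an intensity trend (0.0356). It was called also with array weights (0.0209) and without S rat 1 (0.0431). Under quantile normalization (limma adjusted p = 0.0622) or without any other rat it was not called. The other probe set gave -0.29 ± 0.08 (SE; limma adjusted p = 0.0671), and the values were -0.14 and -0.42 with the RNA quality term. Pmvk, which adds the second phosphate to mevalonate, was at 8.80, 9.06 and 8.85 in S kidneys and 8.72, 8.61 and 8.57 in congenic kidneys, a difference of -0.27 ± 0.09 (SE; limma adjusted p = 0.0958). Its groups did not overlap, and the difference turned to 0.06 with the RNA quality term. Mvd, the decarboxylase that follows, stood at -0.23 ± 0.08 (SE; limma adjusted p = 0.12), or -0.01 with the RNA quality term.

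Fdps, the farnesyl diphosphate synthase that supplies Fdft1, went against its neighbours. S rats 1, 2 and 3 stood at 10.17, 9.80 and 9.90 and congenic rats at 10.29, 10.30 and 10.28. The congenic rats were all higher and close together while the S rats were spread, and the difference was 0.34 ± 0.10 (SE; 1.26-fold higher; limma adjusted p = 0.0710). It was 0.44 and called without S rat 1 (limma adjusted p = 0.0058), and 0.01 with the RNA quality term. Mvk, the mevalonate kinase, had probe sets on both sides, at -0.21, -0.12 and 0.22, and none passed.

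**Figure D3:**
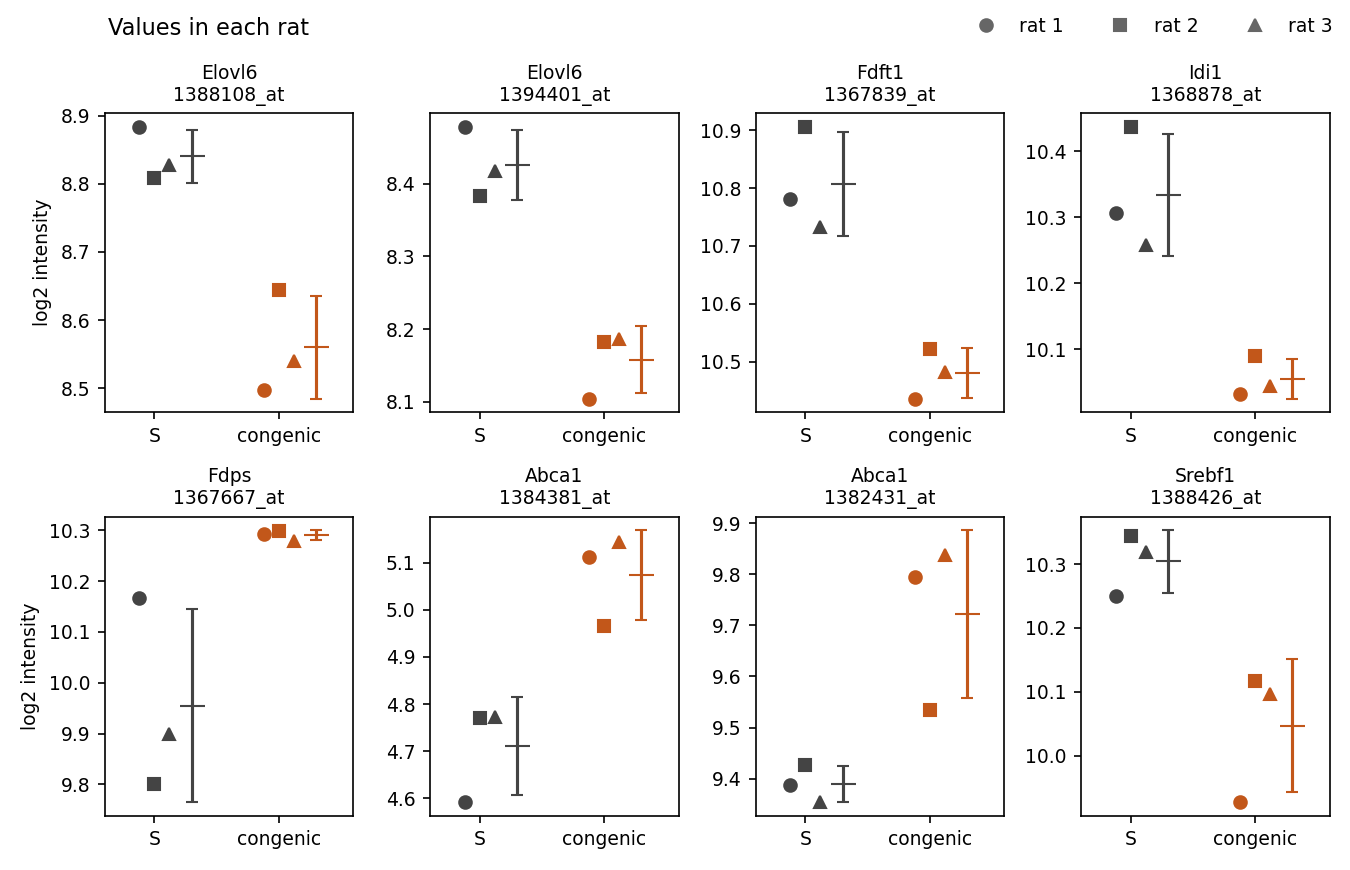
Log2 intensity in each rat (symbols) with mean and SD of 3 rats per group, for 8 probe sets of Elovl6, Fdft1, Idi1, Fdps, Abca1 and Srebf1. In each panel the groups do not overlap, with congenic rats lower for Elovl6, Fdft1, Idi1 and Srebf1 and higher for Fdps and Abca1; panels have separate scales.

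Beyond squalene, the ring-forming and trimming enzymes gave differences from -0.25 for Dhcr7 to 0.32 for Sc5d at their brightest probe sets, and none passed. Dhcr7, the reductase of the last step, had no overlap between groups (-0.25 ± 0.07, SE; limma adjusted p = 0.0740), nor did Lss, which closes the sterol ring (-0.17; limma adjusted p = 0.18). With the RNA quality term they stood at -0.12 and -0.0042. Ebp, a sterol isomerase, stood at -0.13 and Tm7sf2, a sterol reductase, at -0.11, both also without overlap. Hsd17b7, a ketosterol reductase, stood at -0.13 and Cyp51, which removes a methyl group, at -0.17, both with overlap. Sc4mol, a methyl oxidase, stood at -0.03, Sqle, the squalene epoxidase, at 0.07 and Nsdhl, a sterol dehydrogenase, at 0.05. The dimmer probe set of Nsdhl stood at -0.22 without overlap, or 0.14 with the RNA quality term. Sc5d, the desaturase that precedes Dhcr7, was at 9.59, 9.21 and 9.27 in S rats 1, 2 and 3 and 9.78, 9.55 and 9.71 in congenic kidneys. S rat 1 lay within the congenic range, and the difference was 0.32 ± 0.11 (SE; limma adjusted p = 0.11), or 0.09 with the RNA quality term. Its other probe sets stood at 0.22 and -0.02.

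Where a gene had several probe sets they did not always point one way. Of the 18 such members 10 had the same sign at all probe sets and 8 did not, namely Srebf1, Scap, Insig2, Mvk, Nsdhl, Sc5d, Abcg1 and Stard4. The array annotation does not say which transcript end each probe set reads.

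No probe set of the sterol sensors passed. At its brightest probe set Srebf2 stood at 10.68, 10.73 and 10.75 in S rats 1, 2 and 3 and 10.69, 10.71 and 10.77 in congenic kidneys, a difference that rounds to 0.00 with a 95% interval of -0.14 to 0.14. Scap was at 9.79, 9.93 and 9.72 in S kidneys and 9.78, 9.71 and 9.79 in congenic kidneys (95% interval -0.22 to 0.12), and Insig2 at 9.26, 9.35 and 9.09 in S kidneys and 9.23, 9.12 and 9.23 in congenic kidneys (95% interval -0.22 to 0.15). These are the brightest probe sets of the 3 genes, and the groups overlapped at each. The dimmer probe set of Insig2, 1393690_at, was at 8.30, 7.93 and 8.06 in S kidneys and 8.41, 8.36 and 8.40 in congenic kidneys. There the congenic rats were all higher, by 0.29 ± 0.10 (SE; 95% interval 0.07 to 0.51; limma adjusted p = 0.10), or -0.03 with the RNA quality term. Insig1, a target of SREBP as well as its inhibitor, was at 9.66, 9.67 and 9.67 in S kidneys and 9.59, 9.59 and 9.56 in congenic kidneys. These were the tightest replicates of the regulators, without overlap, but the difference was only -0.09 ± 0.06 (SE; 1.06-fold lower; limma adjusted p = 0.40).

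Srebf1, 1 of the 3 members on chromosome 10 with Fasn and Acly, gave unlike results at its probe sets. At the brighter, 1388426_at, S rats 1, 2 and 3 stood at 10.25, 10.34 and 10.32 and congenic rats at 9.93, 10.12 and 10.10. The groups did not overlap, and the difference was -0.26 ± 0.07 (SE; 1.20-fold lower; limma adjusted p = 0.0734), or -0.27 with the RNA quality term. At 1371104_at it was 0.17 ± 0.14 (SE; limma adjusted p = 0.51), or -0.36 with the term. The limits of the LEW segment and any LEW variants that lie under a probe were not analysed here.

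On the efflux side, all 4 probe sets of Abca1, on chromosome 5, were higher in every congenic rat than in any S rat. The called one, 1384381_at, was at 4.59, 4.77 and 4.77 in S rats 1, 2 and 3 and 5.11, 4.96 and 5.14 in congenic kidneys, with a difference of 0.36 ± 0.08 (SE; 1.29-fold higher; limma adjusted p = 0.0413). Both means lay below the lower quartile of the arrays (5.88), and no detection call was used, so its fold is uncertain. The call was kept without S rat 1 (0.30) and lost without any other rat, with differences from 0.30 to 0.42 over the 6. The brightest, 1382431_at, was at 9.39, 9.43 and 9.36 in S kidneys and 9.79, 9.53 and 9.84 in congenic kidneys, with a difference of 0.33 ± 0.09 (SE; 1.26-fold higher; limma adjusted p = 0.0613). The others gave 0.14 (limma adjusted p = 0.27) and 0.68 (1.61-fold; limma adjusted p = 0.0535). All 4 differences were positive in the model with the RNA quality term too, at 0.56 for the called probe set, 0.48 for the brightest, 0.21 and 0.25, and none passed.

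No probe set of the other efflux members passed. Abcg1, which exports sterols to lipoproteins, was, at its brightest probe set, at 9.51, 9.66 and 9.59 in S rats 1, 2 and 3 and 9.61, 9.51 and 9.70 in congenic kidneys (95% interval of the difference -0.15 to 0.20). Nr1h3, the liver X receptor alpha, was at 9.53, 9.65 and 9.52 in S kidneys and 9.59, 9.48 and 9.41 in congenic kidneys (95% interval -0.24 to 0.10). Nr1h2, the liver X receptor beta, was at 9.88, 9.61 and 9.67 in S kidneys and 9.79, 9.92 and 9.99 in congenic kidneys, a difference of 0.18 ± 0.09 (SE; limma adjusted p = 0.27). The groups overlapped at these brightest probe sets of the 3 genes. Abcg1 pointed the other way at its dimmer ones, at -0.13 and, without overlap at 1373995_at, at -0.22 ± 0.12 (SE; limma adjusted p = 0.29), or 0.0041 and 0.29 with the RNA quality term. Stard4, a carrier of cholesterol within the cell, stood at 0.06 ± 0.06 (SE; limma adjusted p = 0.63). Whether Abca1 differed from these genes was not tested.

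Macrophages express Abca1, Abcg1 and Nr1h3, so macrophage markers were read beside them. Of 10 markers 4 were called higher in congenic rats, Cd14, Lyz2, C1qa and C1qb, and 0 lower. Of 14217 genes 301 were called higher at their brightest probe set. Csf1r (-0.04), Cd68 (0.06), Cd163 (0.10), Adgre1 (0.13), Mrc1 (0.26) and C1qc (0.34) did not pass, and the groups overlapped at each. With the RNA quality term these stood at 0.37, 0.61, 0.28, 1.08, 0.88 and 0.82, in the same order. Cd14, Lyz2, C1qa and C1qb stood at 0.37, 0.43, 0.68 and 0.50 with the term, and none of the 10 passed. The summed level of the 10 was 13.58 to 13.77 in S and 13.86 to 14.04 in congenic rats. Lyz2 weighed most in this sum, with means of 12.89 in S and 13.24 in congenic rats. No other marker had a mean above 10.47. Among congenic rats both the macrophage sum and the brightest probe set of Abca1 were highest in rat 3 and lowest in rat 2. Among S rats both were highest in rat 2, but the sum was lowest in rat 1 and Abca1 in rat 3. The brightest probe set of Abcg1 had the order of the sum within both groups, with a difference of only 0.02. That of Nr1h3 had it in neither group. The part of macrophage content in the Abca1 difference was not tested.

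Beside the members, 38 further lipid genes were listed, and 35 were measured. By their brightest probe sets 1 was called higher, 2 lower and 32 did not pass, with a median of -0.0091. These 3 of 35 (8.57%) compare with 4.79% of all genes at their brightest probe set, whose median was -0.03. Me1, the malic enzyme that supplies NADPH for fatty acid synthesis, was at 11.57, 11.78 and 11.64 in S rats 1, 2 and 3 and 11.28, 11.27 and 11.26 in congenic kidneys (-0.39 ± 0.07, SE; 1.31-fold lower; limma adjusted p = 0.0292). Acss2, which makes acetyl-CoA from acetate, was at 13.84, 14.02 and 13.96 in S kidneys and 13.65, 13.60 and 13.60 in congenic kidneys (-0.32 ± 0.07, SE; limma adjusted p = 0.0382). Rxra, the receptor that pairs with the liver X receptors, was at 7.55, 7.37 and 7.76 in S kidneys and 7.92, 8.06 and 7.98 in congenic kidneys (0.43 ± 0.10, SE; limma adjusted p = 0.0469). The groups did not overlap in any of these 3 genes, and with the RNA quality term they stood at -0.17, -0.14 and 0.10. Next came Cyp27a1, a sterol hydroxylase (-0.25; limma adjusted p = 0.0692), Agpat2, an acyltransferase of glycerolipid synthesis (-0.32; limma adjusted p = 0.0810), and Fads1, a desaturase of polyunsaturated fatty acids (0.24; limma adjusted p = 0.0832). Of all probe sets 6.00% were called, 3.47% higher and 2.53% lower. Of the 22 dimmer probe sets of the 35 genes 3 were called, all higher: Elovl5 (1.21), Soat1 (1.03) and Osbp (0.66). Their brightest probe sets stood at 0.03, 0.15 and -0.04. With the RNA quality term the 3 dimmer ones stood at -0.20, 0.47 and 0.21, and none passed.

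**Figure D4:**
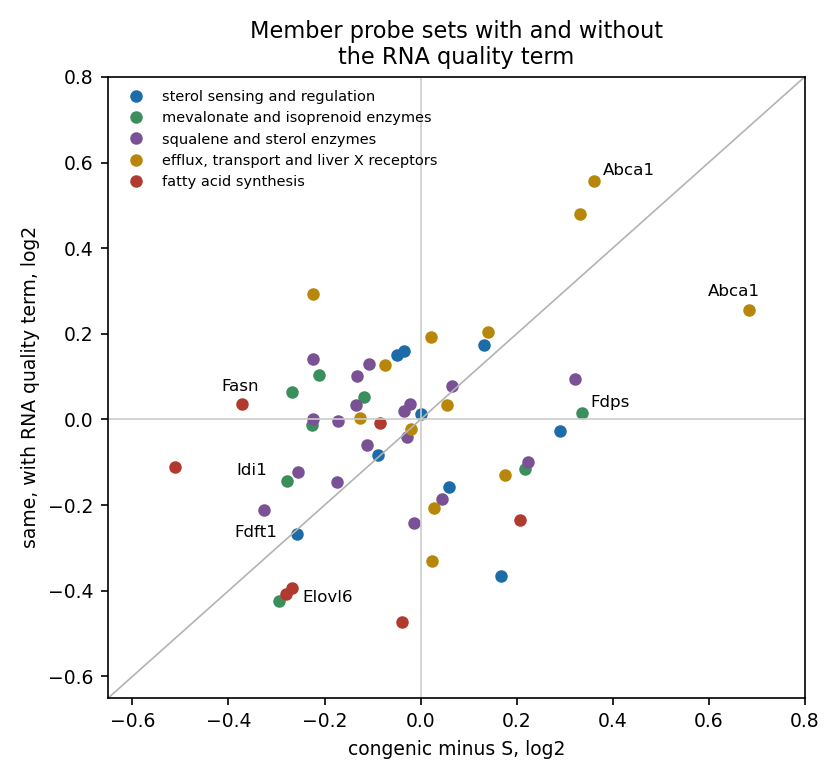
Difference in log2 intensity, congenic minus S, of the 55 member probe sets in the comparison without a covariate (x axis) and with the RNA quality term (y axis), coloured by role; the diagonal marks equal values. Elovl6 and the called probe set of Abca1 lie farther from 0 with the term, while Fdps and the brighter probe set of Fasn lie near 0 on the y axis.

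Across the members, the RNA quality term kept the sign of 29 of 55 differences, against 55.9% of all probe sets, and 28 moved closer to 0. With it 0 of 55 were called (limma), and 6 had an unadjusted p under 0.05, where 22 had one without the term. Over all 31042 probe sets 2292 had one with the term and 7895 without it, so the count fell over the whole array too. The 6 member probe sets were both of Elovl6, 2 of Abca1 and the dimmer ones of Idi1 and Nr1h2. The term itself separates the groups, and standard errors were larger with it, as for Fdft1. The S rats were also more spread than the congenic rats: the SD was larger in S at 36 of the 55 member probe sets, and at 64.2% of all.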

How the data were processed

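Total RNA from 6 kidneys was hybridised to Affymetrix rat expression arrays, 1 per rat, per the labels' protocols. The deposited values are log2 probe set intensities, judged from their range of 3.76 to 15.14. The software that summarised them is not given in the sources used here. Replicates are separate animals by the labels. Array medians lay between 7.47 and 7.50 and correlations between arrays between 0.985 and 0.998. Of 31099 probe sets 57 were controls and were not tested. Names came from the annotation of the array, brought up to date with RefSeq (GRCr8) by gene identifier: of the 31042 tested 20826 had 1 symbol, 436 several (not named) and 9780 none listed. Promoters are RefSeq's, on GRCr8.

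Groups were compared over all probe sets with limma 3.58.1 (R 4.3.3; lmFit and eBayes, two-sided, Benjamini-Hochberg, adjusted p under 0.05; 4 residual degrees of freedom, 8.49 with the prior). The code was also run on simulated data with independent noise. The changes simulated there were larger than any called member difference, so that run does not bear on these calls. The brightest probe set has the highest mean over all arrays. Named in full were called member probe sets, 11 regulators and key members fixed by name, and the 5 largest rises and falls by brightest probe set; of the other lipid genes, called ones and 3 more. The rule for members uses no measured value, but members, lists and alternatives were chosen with earlier results of these data known. Alternatives covered scaling, a filter below percentile 40 of mean intensity, the variance model, weights for arrays, a block on rat number, each rat left out in turn, the RNA quality term, 1 probe set per gene and a threshold of 0.1. Figures used matplotlib 3.10.9.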

Additional observations from a re-analysis of the deposited data

How the results depend on the processing

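The 4 member calls, the 1862 calls over all probe sets and the 3 calls among other lipid genes changed with the choice of test; causes were not tested. Under an unmoderated test 0, 0 and 0 were called (16 members, 6166 probe sets and 9 other genes had an unadjusted p under 0.05), and with the RNA quality term 0, 0 and 0 (6, 2292 and 1). With array weights, which gave S rats 1 and 2 the lowest weights, the counts were 17, 6077 and 12. At an adjusted p under 0.1 they were 14 members and 4455 probe sets. With 1 probe set per gene, which tests fewer, they were 2 members and 666 genes. Leaving out 1 rat gave 0 to 12 members, 0 to 4752 probe sets and 0 to 9 other genes. The 12, 4752 and 9 came without S rat 1, while without any other rat 0 members were called (limma, 13 to 22 with an unadjusted p under 0.05). With the rat number as a replicate block 1 member (Abca1 at 1394490_at, adjusted p = 0.0300), 658 probe sets and 0 other genes were called (18, 6788 and 11 with an unadjusted p under 0.05). Deviations of same-numbered rats correlated at -0.01, -0.18 and -0.14, none above 0.1. Those of differently numbered rats ran from -0.25 (S rat 3 with congenic rat 1) to 0.38 (S rat 3 with congenic rat 2). The labels do not say whether a number marks a cage, so the rats were not treated as pairs. A pairing by cage could therefore not be checked. Quantile normalization, median centring, the filter on dim probe sets, an intensity trend and robust eBayes gave 4 to 6 member calls. These were not always of the same probe sets. The filter removed 8 member probe sets, among them the called one of Abca1. The member median kept its sign in every setting run, from -0.09 to -0.0042.

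Of differences at brightest or called probe sets, those that changed sign were called in neither fit. With the RNA quality term Scap stood at 0.15, Insig2 at 0.16, Mvk at 0.10, Pmvk at 0.0643, Nsdhl at -0.18, Hsd17b7 at 0.10, Ebp at 0.0340, Nr1h3 at 0.13, Nr1h2 at -0.13, Fasn at 0.0368 and Acacb at -0.23. Array weights gave 0.0152 for Scap, 0.0622 for Insig2 and 0.0228 for Sc4mol, median centring -0.0141 for Srebf2 and quantile normalization 0.0041 for Sc4mol. Leaving out 1 rat gave ranges of -0.0233 to 0.0188 for Srebf2, -0.0959 to 0.0083 for Scap, -0.11 to 0.0240 for Insig2, -0.0243 to 0.12 for Sqle, -0.0787 to 0.0114 for Sc4mol, -0.0058 to 0.0884 for Nsdhl, -0.0267 to 0.0717 for Abcg1 and -0.20 to 0.0732 for Scd.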
